A study of Mus musculus with 3 samples.

Results

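The numbered zinc finger protein genes (Zfp followed by a number) were examined in low-input RNA-Seq of mouse blastocysts. The count table lists 325 such genes with a RefSeq messenger RNA identifier, less Zfp36, Zfp42 and Zfp57, and 284 of them had 30 or more counts summed over the 3 libraries. These 284 of the 24063 genes in the table are described here. They were selected on their symbol and on these counts, so that being detected is no finding. Values of a gene are given in the order B6, NOD 1, NOD 2. Zfp768 was just inside the limit, with 20, 11 and 2 counts. Zfp169 was just outside it, with 0, 14 and 15 counts. Of the 41 listed genes under the limit, 12 had 0 counts in every library.

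The libraries were 1 of B6 (C57BL/6), a strain that does not develop autoimmune diabetes, and 2 of NOD, the non-obese diabetic strain, which develops it spontaneously. All were of untreated embryos. The labels give neither their age and sex nor the number pooled per library. The labels describe whole blastocysts used directly as input, while the methods of the study describe single inner cell masses. Trophectoderm keratins were high in all 3 libraries (Krt8 and Krt18 together exceeded every inner cell mass marker listed), so that the libraries hold trophectoderm RNA. The comparison of NOD with B6 asks how the strains differ before implantation.

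The B6 library held 12505685 counts, against 33891715 in NOD 1 and 36171013 in NOD 2, and it limits the precision. Where B6 had no count, its level could still be as high as 0.220 CPM (counts scaled to library size, with TMM factors throughout), the worth of 3 counts. Over 7 trophectoderm markers that could be tested, all were lower in both NOD libraries, and the 8 markers of the list summed to 3038, 1725 and 1582 CPM. The 7 epiblast and inner cell mass markers summed to 371, 449 and 645 CPM, and the 4 primitive endoderm markers to 391, 118 and 158 CPM. The genes of these lists did not move together. Gata6 alone made up the fall of the last sum (385, 91.5 and 130 CPM, called down), while Pdgfra was called up and Gata4 was higher in both NOD libraries. Among the epiblast markers, Sox2 was called down (49.8, 5.75 and 9.61 CPM), Esrrb and Klf2 were lower in both NOD libraries, Tdgf1 was called up, and Nanog (119, 217 and 337 CPM), Pou5f1 (109, 147 and 181) and Fgf4 (5.65, 8.71 and 20.4) were higher in both. Leukocyte markers summed to 0.220, 0.333 and 1.03 CPM, with Ptprc, Lyz2, Cd79a and Fcer1g at 0 in every library, and oocyte and cumulus markers to 30.0, 9.77 and 5.97 CPM. The part of these differences in the results that follow was not tested, and in bulk libraries fewer cells of a type and less RNA per cell cannot be told apart.

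Most Zfp genes encode proteins that bind DNA through tandem zinc fingers of the C2H2 type. Many also carry a KRAB box, which recruits the corepressor Trim28 (KAP1), and through it the histone methyltransferase Setdb1 and HP1 proteins, to silence transposons and to protect imprints in the early embryo. KRAB zinc finger genes lie in tandem clusters that arose by duplication and that differ between species and mouse strains. Other Zfp genes are only named alike and act on ribosomes, RNA, the spindle or ubiquitin.

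The proteins matched this picture. A C2H2 finger was found in 277 of the 283 members whose protein could be translated from the reference annotation, and up to 33 in a protein (Zfp142 and Zfp619). A KRAB box was found in 168 members and not in 115. The median member with a KRAB box had 12 fingers, against 7 in the members without one, although the median protein lengths were alike, at 566 and 571 residues.

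On the TMM scale the members summed to nearly the same level in both strains, at 6171, 6168 and 6206 CPM, a ratio of NOD to B6 of 1.003. As a share of all counts they took 0.672%, 0.602% and 0.584%, a ratio of 0.881, so that the direction of the sum rests on the scaling. Individual genes were mostly low. By FPKM, which corrects counts for listed length and library total and was averaged with equal weight for the strains, the median member stood at 2.54, the quartiles at 0.992 and 6.76, and 46 members reached 10. The 12 highest members held 38.8% of the summed FPKM, and 11 of these 12 had no KRAB box.

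**Figure D1:**
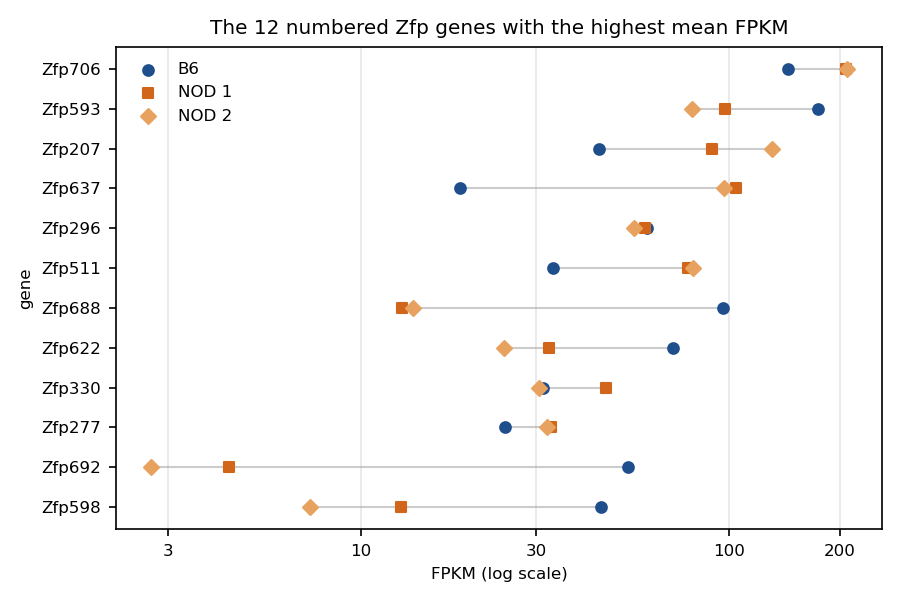
FPKM (log axis) in each library of the 12 members with the highest mean FPKM. Points are single libraries and grey lines join the lowest and the highest. Zfp706 was highest, and the B6 point lies far to the right of both NOD points for Zfp688, Zfp692 and Zfp598.

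Zfp706, a small protein with a role in the exit of embryonic stem (ES) cells from self-renewal, was the highest member, at 145, 208 and 210 FPKM. Its log2 fold change of 0.71 ± 0.20 (SE) did not pass the threshold (edgeR adjusted p = 0.0670). Zfp593, whose yeast counterpart acts in assembly of the large ribosomal subunit, followed at 174, 97.7 and 79.2 FPKM. Of its exon bases, 76.9% lie under E130218I03Rik, and counting ignored strand, so that reads of the pair cannot be told apart. Zfp207 (BuGZ), which binds spindle microtubules and Bub3, was at 44.3, 89.7 and 131 FPKM, higher in both NOD libraries and just short of the threshold (log2 fold change 1.51 ± 0.36, edgeR adjusted p = 0.0503). Zfp296, a Klf4-interacting protein of ES cells, was nearly level at 59.8, 59.1 and 55.0 FPKM, and Gemin7 overlaps 17.2% of its exon bases. Zfp511, at 33.2, 77.2 and 79.9 FPKM, shares 18.1% of its exon bases with Tubgcp2 and also missed the threshold (edgeR adjusted p = 0.0503). For Zfp207 and Zfp511 this holds for the main edgeR fit, and DESeq2 called more members than edgeR. Zfp622, Zfp330 and Zfp277 stood between 24.5 and 70.6 FPKM and were not called. Of the 12 highest members, Zfp637 rose in NOD, and Zfp688, Zfp692 and Zfp598 fell.

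Between the strains, 18 of the 284 members rose in NOD and 11 fell (2-fold or more and an adjusted p under 0.05 by edgeR's quasi-likelihood test). These are 6.34% and 3.87% of the members, against 10.3% and 7.39% of the 14456 genes tested, so that neither share reached the background in this fit. By DESeq2 the members' share that rose passed it, at 15.8% against 14.6% of all genes, while the share that fell did not, at 9.15% against 11.4%. Without regard to the test, 121 members were higher in both NOD libraries than in B6, 123 were lower in both and 40 lay on either side (42.6%, 43.3% and 14.1%, near the 45.3%, 39.4% and 15.3% of all genes tested). Over the members the log2 fold change had a median of 0.05, and over all genes tested of 0.26. The balance differed at a mean of 10 CPM or more. There 35.3% of 139 members were higher in both and 57.6% lower in both, beside 44.7% and 44.8% of all genes at that level. Their median log2 fold change was -0.36, beside 0.01. Of these members 8 rose and 10 fell (5.76% and 7.19%, against 13.3% and 10.8% of all genes at that level). With 1 B6 library, the spread comes from the NOD pair and from moderation across genes, it may be technical, and an exact permutation of 1 library against 2 cannot go below p = 0.333. With the dispersion estimated by glmQLFit 14 members rose and 16 fell, so that the balance of directions turned. No call was made by limma-voom, nor by edgeR without the filter on low counts, as described under the dependence on processing.

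**Figure D2:**
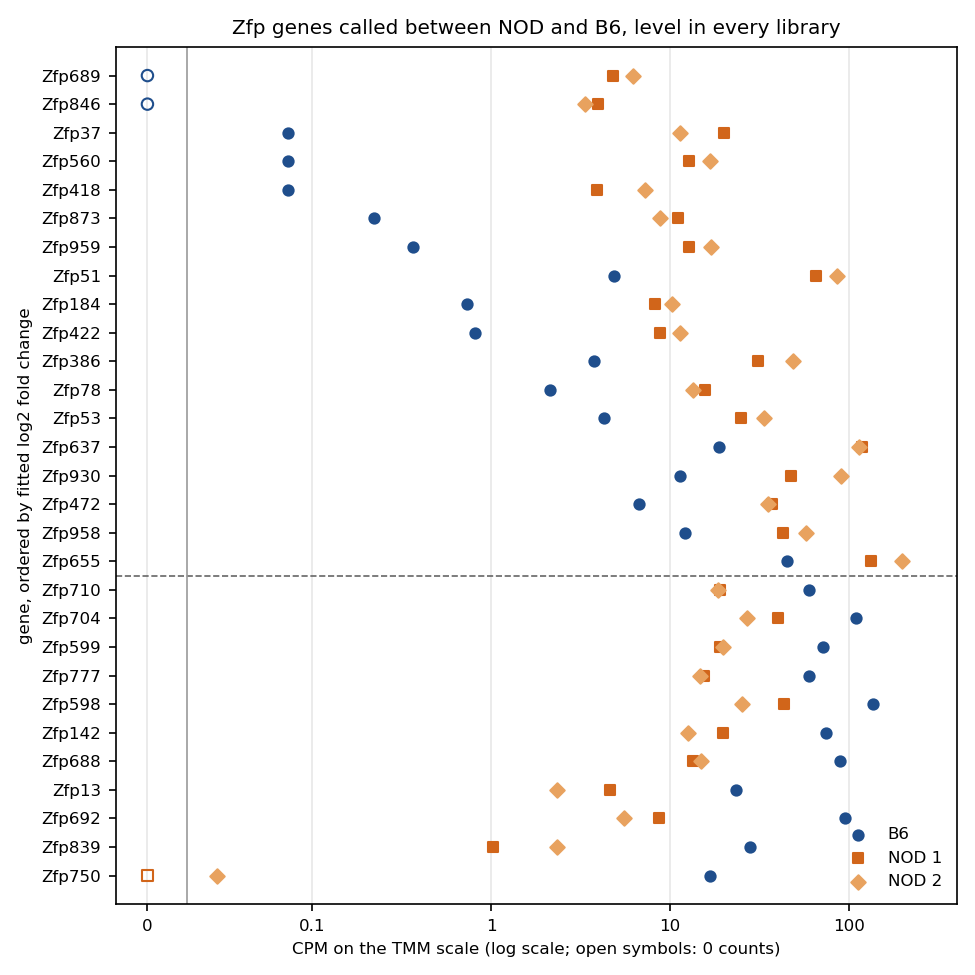
CPM on the TMM scale (log axis) of the 29 called members in every library, ordered by fitted log2 fold change, with those higher in NOD above the dashed line. Open symbols left of the grey line mark 0 counts. In all 29 genes both NOD points lie on the same side of the B6 point.

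Of the 18 members that rose, 14 had a KRAB box. Zfp51 was the clearest of those with counts in every library, at 4.84, 65.2 and 85.3 CPM (log2 fold change 3.96 ± 0.47, edgeR adjusted p = 0.0216). Zfp53, which lies close to it on chromosome 17, was at 4.26, 24.8 and 33.4 CPM (log2 fold change 2.77 ± 0.53, edgeR adjusted p = 0.0354). The pair thus rose together, and neither NOD library came near the B6 level. Zfp386 (chromosome 12) was at 3.74, 31.1 and 48.6 CPM (log2 fold change 3.41 ± 0.56, edgeR adjusted p = 0.0290). Zfp637, which has 6 fingers and no KRAB box and was among the highest members, was at 18.6, 117 and 113 CPM (log2 fold change 2.63 ± 0.34, edgeR adjusted p = 0.0231). Its NOD libraries differed from each other far less than either did from B6.

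A further 5 called members had at most 5 counts in B6 and were well counted in NOD. Zfp560 had 1, 421 and 565 counts, a depth-corrected ratio of 200 (exact 95% counting interval 35.9 to 7919). Zfp37 had 1, 658 and 386 counts, a ratio of 212 (38.0 to 8384), and Zfp418 had 1, 129 and 245, a ratio of 76.0 (13.6 to 3009). In all of these both NOD libraries stood far above B6, while the size of the ratio rests on a single B6 count. Zfp873 had 3, 363 and 299 counts, a ratio of 44.8 (15.3 to 218), and Zfp959 had 5, 420 and 575, a ratio of 40.4 (17.3 to 125). Of the 50-base words of Zfp959, 21.3% also occur in another gene, so that its counts are uncertain. Reads amplified without molecular identifiers are no independent molecules, so that these intervals and bounds are for counting error alone. With scaling to total counts or to upper quartiles Zfp418 lost its call, and with the dispersion estimated by glmQLFit both Zfp418 and Zfp873 did.

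No count was seen in B6 for 23 members, 8.10% of the members against 8.76% of all genes tested with 30 or more counts, and 2 of them were called. Zfp689 had 158 counts in NOD 1 and 211 in NOD 2, at least 24.9-fold higher than the 3 counts that a B6 count of 0 allows (edgeR adjusted p = 0.0315). B130055M24Rik overlaps 13.95% of its exon bases. Zfp846 had 131 and 113 counts, at least 16.5-fold higher (edgeR adjusted p = 0.0407). Both lost their calls with the dispersion estimated by glmQLFit, and Zfp846 also with upper-quartile factors (adjusted p = 0.0501). The others missed the threshold, among them Zfp146 (148 and 68 counts, edgeR adjusted p = 0.0509), Zfp758 (142 and 58) and Zfp600 (78 and 74), which were picked for naming after their values were seen. Of the words of Zfp600, measured as above, 85.0% also occur in another gene, so that its counts are uncertain. With the 23 members at 0 in B6 at their bounds the median log2 fold change of the members is also 0.05. They passed the count limit through NOD alone and so lie above the median in either case, which makes this no check of it.

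The remaining members that rose were Zfp184, Zfp422, Zfp78, Zfp930, Zfp472, Zfp958 and Zfp655. Their log2 fold changes ran from 1.87 ± 0.38 for Zfp655 (45.1, 132 and 197 CPM) to 3.65 ± 0.82 for Zfp184 (0.734, 8.20 and 10.3 CPM). Zfp930 was the least even of them in NOD, at 11.3, 47.1 and 90.0 CPM. For Zfp422, 20.4% of its 50-base words occur in another gene. All 7 had a higher level in both NOD libraries than in B6, and all but Zfp472 lost their calls both with scaling to total counts only and under upper-quartile factors.

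Of the 11 members that fell, 7 had no KRAB box. Zfp750, a transcription factor of terminal epidermal differentiation, had 227, 0 and 1 counts. B6 was higher by a depth-corrected ratio of 1118 (exact 95% counting interval 199 to 44332, edgeR adjusted p = 0.0196). Zfp692, a repressor regulated by AMP-activated kinase, was at 94.5, 8.68 and 5.53 CPM (log2 fold change -3.73 ± 0.43, edgeR adjusted p = 0.0212). Zfp839 was at 28.0, 1.03 and 2.32 CPM (log2 fold change -4.06 ± 0.69, edgeR adjusted p = 0.0300). For these genes the B6 level was far above both NOD levels. Zfp598, the ubiquitin ligase that marks collided ribosomes, was at 135, 43.1 and 25.3 CPM (log2 fold change -1.98 ± 0.42, edgeR adjusted p = 0.0422), and lost its call with upper-quartile factors (adjusted p = 0.0533).

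Zfp688, which has a KRAB box and 2 fingers, was at 89.3, 13.4 and 14.9 CPM (log2 fold change -2.66 ± 0.35, edgeR adjusted p = 0.0231). Zfp599, Zfp777 and Zfp13 are the other members with a KRAB box that fell, with log2 fold changes of -1.87, -1.98 and -2.75. Zfp142 (74.0, 19.7 and 12.6 CPM), Zfp704 (109, 40.0 and 26.7 CPM) and Zfp710 (59.4, 18.9 and 18.6 CPM) complete the list. Plcd4 overlaps 28.1% of the exon bases of Zfp142, and C030034L19Rik 18.3% of those of Zfp704. With upper-quartile factors Zfp704, Zfp710 and Zfp13 lost their calls (adjusted p = 0.0573, 0.0526 and 0.0595). In every gene that fell, the B6 level was above both NOD levels.

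Members with and without a KRAB box were compared in level and direction. The median member with a KRAB box stood at 1.81 FPKM and that without at 5.14. Members with a KRAB box summed to 1787, 2108 and 2227 CPM, while those without summed to 4382, 4057 and 3971. The first sum was higher, and the second lower, in both NOD libraries, also as shares of all counts (0.195%, 0.206% and 0.210% against 0.477%, 0.396% and 0.374%). Among the 168 with a KRAB box, 14 rose, 4 fell, 86 were higher in both NOD libraries and 56 lower in both, and the median log2 fold change was 0.65. Among the 115 without, 4 rose, 7 fell, 34 were higher in both and 67 lower in both, with a median of -0.45. The shares that rose and fell were 8.33% and 2.38% with a box and 3.48% and 6.09% without, all below the 10.3% and 7.39% of all genes tested. The shares higher and lower in both NOD libraries were 51.2% and 33.3% with a box and 29.6% and 58.3% without, beside 45.3% and 39.4% of all genes tested, whose median log2 fold change was 0.26. With the 19 and 4 members at 0 in B6 at their bounds the medians are again 0.65 and -0.45, which is no check, since members at 0 in B6 passed the count limit through NOD alone.

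Level and class go together, so both were split by mean level. At 10 CPM or more, the median log2 fold change was 0.19 over 61 members with a KRAB box and -0.57 over 78 without, beside 0.01 over all 8502 genes tested at that level. Of the 78 without, 67.9% were lower in both NOD libraries, against 44.3% of the 61 with a box and 44.8% of all genes. At 2 to 10 CPM the medians were 0.56 over 71 members and 0.13 over 22, beside -0.01 over all 2755 genes tested at that level. The 51 members under 2 CPM had a median of 4.12, near the 3.65 of all genes tested at that level. The part of the lower trophectoderm markers in NOD in this split was not tested. No test was made over the classes. With total counts only, the medians at 10 CPM or more were 0.0 with a box and -0.76 without, beside -0.18 over all genes tested at that level, and those at 2 to 10 CPM were 0.38 and -0.05, beside -0.20, so that the first was no longer above 0 and the last changed sign. Over all levels the class medians were then 0.47 and -0.64.

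**Figure D3:**
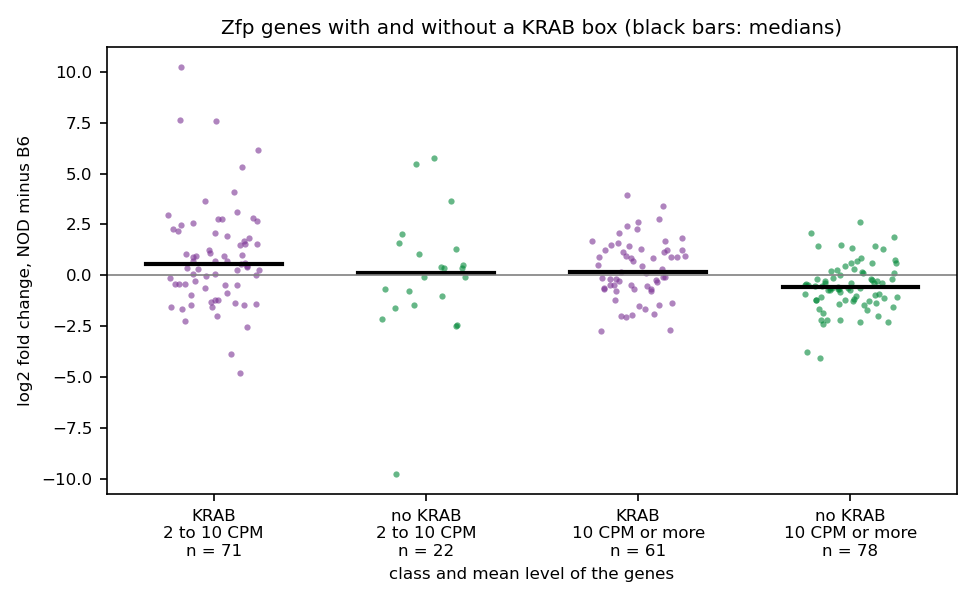
Log2 fold change (NOD minus B6) of members with and without a KRAB box, at mean levels of 2 to 10 CPM and of 10 CPM or more. Each point is a gene and black bars are medians (0.56, 0.13, 0.19 and -0.57 from left to right). At both levels the median is higher with a box than without.

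Members lay on 20 chromosomes, with 78 on chromosome 7, 35 on chromosome 17 and 27 on chromosome 13. A cluster was defined as 4 or more listed genes, each starting at most 500 kb after the last end. This gave 19 clusters with 156 listed genes and 146 members, 9 of them on chromosome 7. Of the members with a KRAB box, 119 lay in clusters and 49 outside, and 10 clusters held listed genes with a KRAB box only. Members in clusters were lower, at a median of 1.76 FPKM against 3.80 outside. In clusters 10 members rose and 4 fell (median log2 fold change 0.24), and outside 8 rose and 7 fell (median -0.08). These are 6.85% and 2.74% of the members in clusters and 5.80% and 5.07% of those outside, none of them above the 10.3% and 7.39% of all genes tested, whose median was 0.26.

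**Figure D4:**
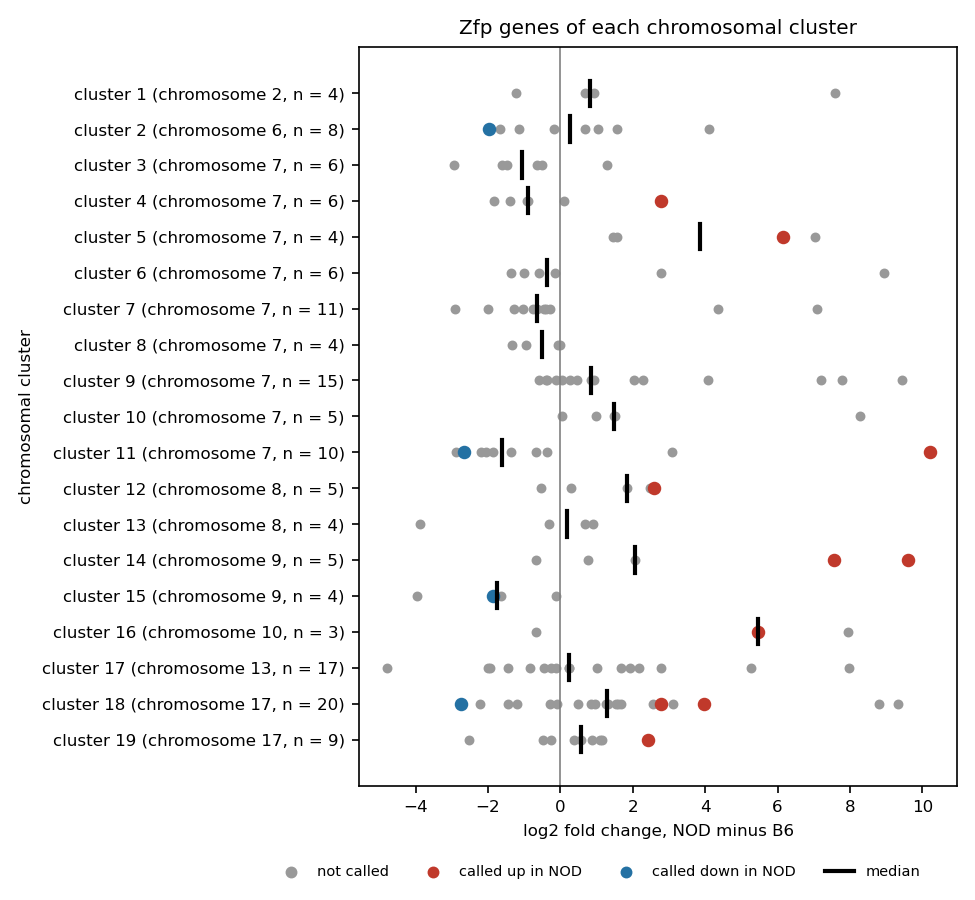
Log2 fold change (NOD minus B6) of the members of each of the 19 chromosomal clusters, numbered along the genome. Grey points are not called, red points rose and blue points fell in NOD, and black bars are medians. Calls in both directions occur in the clusters of chromosome 17 with 20 members and of chromosome 7 with 10 members.

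The largest cluster spans chr17:21008941-23599487 (mm10), with 20 members that all have a KRAB box. Of these, 13 were higher in both NOD libraries and 5 lower in both (median log2 fold change 1.29). Over all genes tested 45.3% were higher in both, 39.4% were lower in both and the median was 0.26, which is also the background for the clusters that follow, and no test was made of a cluster against it. The cluster summed to 218, 312 and 373 CPM. Zfp51 and Zfp53 rose, and Zfp13 at the far end fell (23.3, 4.60 and 2.32 CPM, log2 fold change -2.75 ± 0.64, edgeR adjusted p = 0.0492). Zfp160, the member nearest to the other end, was lower in both NOD libraries at 51.7, 14.6 and 30.3 CPM but did not pass the test (edgeR adjusted p = 0.163). Zfp13 lost its call with scaling to total counts only as well. The median over all genes tested on chromosome 17 was 0.05, and over its 35 members 0.89.

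The cluster on chromosome 13 (chr13:67038594-67827000) held nearly as many genes at a lower level. Its 19 listed genes all had a KRAB box, 17 were members, and none was called. The 17 summed to 75.7, 64.9 and 69.5 CPM, with 7 higher in both NOD libraries and 6 lower in both. Zfp58 was its highest member by mean FPKM (18.6, 3.69 and 5.97 CPM, edgeR adjusted p = 0.0814), and 50.2% of its 50-base words occur in another gene. Its rank rests on B6 (8.598, 1.53 and 2.385 FPKM), and other members were higher in each NOD library. Zfp459 was at 4.26, 0.0908 and 0.206 CPM (edgeR adjusted p = 0.0576). Zfp459, like Zfp160 above, was picked for naming after its values were seen. The cluster of 15 members at chr7:29768552-30169727 had no call either, and 8 of its members were higher in both NOD libraries. Most of its level came from Zfp568, a repressor of a placental Igf2 transcript, at 77.1, 159 and 117 CPM (log2 fold change 0.84 ± 0.33, edgeR adjusted p = 0.133).

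On distal chromosome 7 (chr7:127233443-127885996), 8 of 10 members were lower in both NOD libraries, beside 39.4% of all genes tested, and the cluster summed to 221, 68.8 and 72.7 CPM. Its neighbours Zfp688 and Zfp689 were called in opposite directions. At chr9:20345136-20595193, Zfp560 and Zfp846, at the ends of a cluster of 5, both rose, and the 3 members between them were not called. On the same chromosome the cluster at chr9:22055460-22307638 went the other way, with sums of 99.1, 30.0 and 27.7 CPM, and Zfp599 fell (70.9, 19.0 and 19.8 CPM, log2 fold change -1.87 ± 0.35, edgeR adjusted p = 0.0348). Zfp418 rose in a cluster of 4 members on chromosome 7, Zfp78 in one of 6, Zfp930 in one of 5 on chromosome 8, Zfp873 in one of 3 on chromosome 10 and Zfp472 in one of 9 on chromosome 17. Zfp777 fell in a cluster of 8 members on chromosome 6. In the other 9 clusters no member was called. The highest members per length of the clusters not named so far (Zfp120, Zfp524, Zfp426, Zfp667, Zfp954, Zfp110, Zfp428, Zfp60, Zfp936, Zfp869, Zfp961 and Zfp938) were not called, with log2 fold changes from -1.34 for Zfp60 to 2.07 for Zfp426 (2.50, 11.8 and 9.23 CPM, edgeR adjusted p = 0.0952).

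The promoters of Zfp560 and Zfp846 and of Zfp688 and Zfp689 are shown, since the first 2 genes rose within 1 cluster and the other 2, which lie side by side, were called in opposite directions. The sequences are the 250 bases before the start site (RefSeq, GRCm38.p6), written 5′ to 3′ on the strand of the gene. They lie at chr9:20385159-20385408 (minus strand) for Zfp560, chr9:20581078-20581327 (plus) for Zfp846, chr7:127422035-127422284 (minus) for Zfp688 and chr7:127449159-127449408 (minus) for Zfp689. Capitals mark CGGAAG, the core of sites bound by ETS family factors, on either strand.
Zfp560: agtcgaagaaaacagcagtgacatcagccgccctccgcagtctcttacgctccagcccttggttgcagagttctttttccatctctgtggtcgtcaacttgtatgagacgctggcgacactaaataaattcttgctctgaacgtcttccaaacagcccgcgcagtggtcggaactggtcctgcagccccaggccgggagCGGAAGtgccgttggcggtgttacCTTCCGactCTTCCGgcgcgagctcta
Zfp846: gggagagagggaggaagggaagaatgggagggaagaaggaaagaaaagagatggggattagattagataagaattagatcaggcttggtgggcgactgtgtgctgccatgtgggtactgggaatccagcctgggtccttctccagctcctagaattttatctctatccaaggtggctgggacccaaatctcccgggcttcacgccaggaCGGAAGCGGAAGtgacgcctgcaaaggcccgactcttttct
Zfp688: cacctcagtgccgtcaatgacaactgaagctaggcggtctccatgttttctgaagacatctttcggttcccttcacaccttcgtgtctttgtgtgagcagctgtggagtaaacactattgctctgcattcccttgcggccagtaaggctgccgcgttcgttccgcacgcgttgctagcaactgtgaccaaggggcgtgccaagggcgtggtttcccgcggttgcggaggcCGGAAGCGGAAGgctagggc
Zfp689: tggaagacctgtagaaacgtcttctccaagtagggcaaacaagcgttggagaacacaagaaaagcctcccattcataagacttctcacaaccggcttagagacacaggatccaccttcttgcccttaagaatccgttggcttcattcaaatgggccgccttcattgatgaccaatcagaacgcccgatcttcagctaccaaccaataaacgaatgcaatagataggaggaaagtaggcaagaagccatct

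CGGAAG occurred 3 times in the Zfp560 window and 2 times each in those of Zfp846 and Zfp688, where the 2 copies are adjacent. These letters are not in the Zfp689 window. The motif was chosen after these sequences were read. Promoters were found for 234 members, of which 30.3% held it, against 17.7% of all 16826 promoters and 24.8% of those of genes tested. It was in 8 of the 16 promoters of members that rose and in 5 of the 8 of members that fell. These counts include the windows from which the motif was chosen, so that they are no check of it. ATGGCG, a core of YY1 sites, was in 9.40% of the member promoters (6.48% of all and 8.78% of those of genes tested), and ACTACAA, from the site of the factor that Zfp143 encodes, in 5.56% (3.22% and 3.63%). Neither occurs in the windows shown. The windows of Zfp560 and Zfp688 held 19 and 18 CpG dinucleotides, and those of Zfp846 and Zfp689 held 7 and 8, beside a median of 12 over the members.

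Members with known roles in silencing were mostly seen in both strains. Zfp445, which protects imprints together with Zfp57, was at 62.1, 66.0 and 34.5 CPM, and Zfp644, a partner of the G9a and GLP methyltransferases, at 41.2, 40.1 and 27.1. Zfp932, a repressor of endogenous retroviruses, was at 12.2, 27.4 and 18.7 CPM, but 55.5% of its 50-base words occur in another gene. Zfp708, which silences a family of retrotransposons, was at 1.54, 4.09 and 5.82 CPM, and all of its exon bases lie under other annotated genes. Zfp819, a repressor of transposons in ES cells, had 0, 44 and 53 counts and so was not seen in B6. Of 8 genes of the silencing list that were tested, including Zfp809 and Zfp462, which are no members, none was called and 6 were higher in both NOD libraries, beside 10.3% that rose, 7.39% that fell and 45.3% higher in both over all genes tested, so that no call among 8 is near the background. Zfp462 is among these 6, with only 0, 2 and 16 counts. At an unadjusted p under 0.05, 94 of all 284 members differed (33.1%, against 39.9% of all genes tested).

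The ES cell list had 7 genes tested and none called by edgeR, with 5 higher in both NOD libraries (median log2 fold change 0.71, beside 45.3% higher in both and 0.26 over all genes tested). Of the 5, Zfp462 is no member and had only 0, 2 and 16 counts. Zfp296 is another of them, and its log2 fold change was below 0 with total counts only. Among so few genes, no call is near what the shares of all genes called would give. Besides Zfp706, Zfp207, Zfp296 and Zfp462, the list held Zfp143, an activator at promoters (35.8, 56.7 and 63.9 CPM), Zfp217 and Zfp281, which acts in the exit from naive pluripotency (53.6, 20.5 and 35.8 CPM). Zfp281 was lower, and Zfp143 higher, in both NOD libraries than in B6, and in neither case did the difference pass the test.

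Of the 12 tested genes with roles in RNA, ribosomes, the spindle or ubiquitin, edgeR called Zfp598 down and none up. Both NOD libraries were lower for 9 of the 12, and the median log2 fold change was -0.54. Over all genes tested, 10.3% rose, 7.39% fell, 39.4% were lower in both and the median was 0.26, so that 1 fallen gene among 12 is near the background. Zfp622, which matures the large ribosomal subunit, was at 181, 93.3 and 72.7 CPM (edgeR adjusted p = 0.0609). Zfp91, a ubiquitin ligase, was at 192, 115 and 68.5 CPM (edgeR adjusted p = 0.112), and Zfp346, which binds double-stranded RNA, at 15.3, 0.817 and 4.64 (edgeR adjusted p = 0.153). The B6 level was the highest of the 3 for each of these genes. Smaller differences were seen for Zfp106 (231, 201 and 187 CPM), Zfp830 (50.1, 35.8 and 35.4), Zfp326 (27.1, 18.5 and 23.6), Zfp318 (20.6, 17.0 and 10.3), Zfp451 (26.9, 27.8 and 30.8) and Zfp330 (46.8, 77.4 and 52.7), and none of them passed the test.

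Corepressors of KRAB proteins were also measured, with other silencing genes on the same list, such as Ehmt2 and Dnmt1. Of 20 genes, 2 rose and 3 fell, beside 10.3% and 7.39% of all genes tested. Cbx1 (10.8, 133 and 130 CPM) and Hdac2 (193, 528 and 580 CPM) rose, and Ehmt2 (205, 36.6 and 34.1 CPM), Dnmt1 (117, 42.6 and 29.6 CPM) and Cbx5 (280, 144 and 116 CPM) fell, the last with an edgeR adjusted p of 0.0499. With upper-quartile factors Dnmt1 and Cbx5 lost their calls (adjusted p = 0.0542 and 0.0604). Cbx1 and Cbx5 encode HP1 proteins, so that members of 1 family were called in opposite directions. Trim28 itself was at 820, 648 and 487 CPM (277, 196 and 142 FPKM, above the 96.3 FPKM of Zfp688 in B6, the highest FPKM of any member with a KRAB box), and was not called (log2 fold change -0.53 ± 0.25, edgeR adjusted p = 0.184). Setdb1 was at 42.4, 85.0 and 58.1 CPM and was not called.

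The NOD libraries were compared with each other as well. At 10 CPM or more, the larger NOD level was a median of 1.38 times the smaller over 139 members and 1.25 times over all genes tested. These members had lower levels, at medians of 24.4, 19.9 and 20.6 CPM against 49.4, 47.8 and 46.5 over all genes tested there. At this level 10 members had a B6 level between the NOD levels, such as Zfp217 (55.4, 60.5 and 36.9 CPM), Zfp445 (62.1, 66.0 and 34.5) and Zfp667 (20.8, 17.8 and 27.0). They are 7.19% of the members at this level, below the 10.5% of all genes tested there.

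Near-identical copies could blur the counts of some members. Shared words were measured in the reference annotation only, so that copies or sequence particular to NOD were not seen. Their part in the differences between the strains was not tested. In 66 members 10% or more of the 50-base words occur in another gene, and in 18 members 50% or more. The 66 held 3 members that rose and 2 that fell, and the 217 with fewer shared words 15 and 9. These are 4.55% and 3.03% against 6.91% and 4.15%, all below the 10.3% and 7.39% of all genes tested. The medians of the log2 fold change were -0.11 and 0.12. By chromosome, the median was -0.23 over the 78 members of chromosome 7, with 3 that rose and 2 that fell (3.85% and 2.56%), beside -0.05 over all genes tested there, of which 7.71% rose and 8.67% fell. It was 0.25 over the 27 members of chromosome 13 (0.58 over all genes there) and 0.54 over the 20 of chromosome 8 (0.11), where 2 of the 20 rose and none fell, beside 10.2% and 8.57% of all genes there.

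Related zinc finger families gave a backdrop. Of 39 Zbtb genes tested, which pair zinc fingers with a BTB domain, 2 rose and 3 fell (median log2 fold change -0.22), which are 5.13% and 7.69% beside the 10.3% and 7.39% of all genes tested. Of 20 Zscan and Zkscan genes, which carry a SCAN domain, none was called, and 2 had an unadjusted p under 0.05. Of 17 Zfp genes whose number is followed by a letter, 1 rose and 1 fell. No difference between these families and the members was tested.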

How the data were processed

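Low-input RNA-Seq was performed by the authors on 3 blastocyst samples, 1 of B6 and 2 of NOD, grouped by strain from the labels. Per the file headers and the submitters' processing notes, the authors aligned 50-base single-end reads with STAR (2.2.0c) to the mm10 build and deposited raw counts per RefSeq gene made with HOMER, on exons of both strands together and without normalization. The methods of the study name another STAR version. Reads of both strains were aligned to this 1 build. The part of sequence differences between the strains in the counts was not tested. How reads with several alignments were handled is not given in the sources used here. No column of the table was left unused.

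Counts were analysed in R 4.3.3 with edgeR 4.0.16 (filterByExpr with a minimum count of 10, TMM factors of 1.09, 0.975 and 0.941, trended dispersion passed to the quasi-likelihood fit, 14456 genes tested, Benjamini-Hochberg adjustment, prior count 0.125). The test was checked on simulated counts. DESeq2 1.42.0 and limma 3.58.1 gave alternatives. Standard errors are on the log2 scale. Counting intervals are exact Clopper-Pearson intervals of the split of counts between strains.

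The members, lists and clusters were chosen with earlier results of these data known. Proteins were translated from GENCODE M21, with 323 of the 325 listed genes matched by accession, 1 by symbol and 1 not. The KRAB box was found with a HMMER 3.4 profile built from the matches of a strict sequence pattern. The pattern alone had been planned as the main definition and missed 33 members that the profile found. Shared sequence was measured as the share of 50-base words of a gene that occur in another. The genes named were the 12 highest by FPKM, the called members (up to 10 in each direction by size, and the rest for completeness), the highest member of each cluster, the lists by role, and those next to the count limit.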

Additional observations from a re-analysis of the deposited data

How the results depend on the processing

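Counts of calls depended on the test and the scaling. Of the members, 11 rose and 10 fell with scaling to total counts only, beside 18 and 11 on the TMM scale, and 10 rose and 7 fell with upper-quartile factors. DESeq2 called 45 up and 26 down (15.8% and 9.15% of the members, against 14.6% and 11.4% of 16765 genes). These held all 29 members called by edgeR and others that had missed its threshold. Both limma-voom and edgeR without the filter on low counts called 0 of the members and 0 of all genes, with lowest adjusted p values of 0.0501 and 0.0649 and with 51 and 89 members at an unadjusted p under 0.05. All 29 called members kept their direction under each of these alternatives and under DESeq2's size factors and the dispersion estimated by glmQLFit, a setting chosen after seeing the data, which called 14 members up and 16 down, kept 22 of the 29 calls and turned the calls over all genes from 1483 up and 1069 down into 1231 up and 1373 down. Scaling to total counts turned them into 1037 up and 1132 down. All alternatives refitted the same 3 libraries, so that a kept direction is no further evidence for a call. Scaling to upper quartiles ended 12 of the 29 calls (Zfp655, Zfp422, Zfp184, Zfp13, Zfp78, Zfp710, Zfp704, Zfp418, Zfp598, Zfp958, Zfp846 and Zfp930). Of the 20 corepressor and other silencing genes, upper-quartile factors left 1 fallen, the dispersion of glmQLFit gave 5 and DESeq2 6. Among them limma-voom and the fit without the filter called 0 in either direction.

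The median log2 fold change of the members was -0.13 with total counts only, 0.0 over members with 100 or more counts and -0.08 over those at 1 CPM or more, and so was no longer above 0. It ranged from -0.01 to 0.05 when 1 NOD library was left out. With total counts only, the medians with and without a KRAB box were 0.47 and -0.64, and those of members without a box at 2 to 10 CPM (-0.05) and with a box at 10 CPM or more (0.0) were no longer above 0. When 1 NOD library was left out, the first ranged from 0.44 to 0.64 and the second from -0.50 to -0.42. Without a box it was -0.37 by the stricter and -0.36 by the looser pattern. The ratio of the summed members was 0.9762, 0.8814 and 1.009 with DESeq2's size factors, total counts only and upper-quartile factors. With total counts only, Zfp296 and Zfp451 were at a log2 fold change of -0.07 and Zfp667 at -0.09, below 0. Clusters numbered 17 with gaps of at most 200 kb and 21 with gaps of up to 1 Mb. Leaving out 1 NOD library leaves no residual degrees of freedom, so that no calls were made there. No paired analysis was possible because B6 has 1 library. Depth limits the genes that are low in B6, since the NOD libraries held 2.71 and 2.89 times its counts.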
